A study of Mus musculus with 12 samples.

Results

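The study's hippocampal RNA was examined for 9 genes of the brain's blood vessels across 12 adult mice: Cldn5, Cdh5, Pecam1, Flt1, Kdr, Tek, Slco1a4 and Ly6c1, which mark endothelial cells, and Pdgfrb, which marks pericytes. They were chosen by name. All deposited transcripts of each gene were summed, and the 9 genes stood among 35580 genes with a transcript in the table. Each value was then set beside the haemoglobin genes of the same mouse, to ask whether vessel content differed between the groups.

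All mice were C57BL/6 males at postnatal day 70, with 3 mice in each of 4 groups. Control mice came from dams that drank water only and were left with the dam as pups. Ethanol mice came from dams that could choose 10% ethanol beside water during gestation and, per the study's methods, into the first postnatal days. Stress mice had water-drinking dams and were isolated from dam and littermates for 3 h a day from postnatal day 2 to 14. Ethanol + stress mice had both exposures. Because part of each litter was assigned to isolation and the labels do not name litters, mice may share a dam, and the p-values treat them as independent. Total RNA depleted of ribosomal RNA was sequenced from whole dissected hippocampus. The 7 hippocampal neuron markers summed to 1673 to 2101 TPM, and every library held them. No perfusion is described, and mice were killed by carbon dioxide and cervical dislocation.

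Endothelial cells of brain vessels are sealed to each other by tight junctions and form the blood-brain barrier, and pericytes wrap the capillary wall from outside. Endothelial growth, survival and stability are steered by receptors for vascular endothelial growth factor (Flt1 and Kdr) and for the angiopoietins (Tek). Pericytes are recruited through Pdgfrb, the receptor for platelet-derived growth factor B that endothelial cells release. Haemoglobin messages are carried mostly by young red blood cells, and some brain cells are also known to hold a little of them.

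The genes lie on mm10 at chr16:18776847-18778262 (Cldn5), chr8:104101625-104144511 (Cdh5), chr11:106654217-106750628 (Pecam1), chr5:147561604-147726011 (Flt1), chr5:75932827-75978458 (Kdr), chr4:94739289-94874976 (Tek), chr6:141805440-141856199 (Slco1a4) and chr15:75044018-75048830 (Ly6c1), with Pdgfrb on chromosome 18. Each value sums annotated transcripts, exons and untranslated ends included.

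All 9 genes were measured well above the low-value limit of 0.1 TPM (a transcript level corrected for transcript length and library size). Averaged over the 12 mice, the order per length was Ly6c1 at 56.2 TPM, Slco1a4 at 47.6, Cldn5 at 37.7, Flt1 at 11.98, Pecam1 at 10.7, Pdgfrb at 8.02, Tek at 6.57, Kdr at 4.36 and Cdh5 at 3.45. The ranges over the mice of all neighbours in this order overlapped except those of Cldn5 and Flt1. Libraries held about 12060000 to 14950000 read pairs, recovered approximately from the low values. The thinnest member value was 82 read pairs, for Cdh5 in one stress mouse, where counting error alone gives a coefficient of variation of 11.04%. For Slco1a4 the lowest value was 547 read pairs, or 4.28%, with all its transcripts pooled. Slco1a4-202, which holds 49.2% of its TPM, had 62.6 read pairs in stress replicate 2, so the error of the summed TPM is larger. These figures cover counting error only. In 3 libraries, ethanol replicate 2 and ethanol + stress replicates 2 and 3, values fell with transcript length more than in the others, and values without them are given beside several results. Leaving them out keeps only ethanol + stress replicate 1 in its group, so values for that group then rest on 1 mouse.

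Flt1 is shown in sequence because its message has a long and a short form, and the short form lacks the membrane-spanning and kinase parts and is known as a secreted trap for growth factor. Both forms share their first 13 exons up to base 147639225 of chromosome 5 (mm10, minus strand). Flt1-202, with 30 exons, then joins exon 14 at base 147634523, and Flt1-203 reads on into the following intron, in a last exon that spans chr5:147635159-147639533. The lower-case letters are the 30 coding bases shared by both, and the capitals are the 30 bases that only the named form has.
Flt1-202: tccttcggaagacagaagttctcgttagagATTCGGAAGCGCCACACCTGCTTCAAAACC
Flt1-203: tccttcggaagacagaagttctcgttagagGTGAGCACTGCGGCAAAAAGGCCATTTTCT

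Flt1 and Kdr, the 2 growth factor receptors, are also shown by the 250 bases before their start, because their levels moved together between mice of a group (Pearson's r = 0.74 after group means were removed, over 12 mice, a description). The sequences are from RefSeq on GRCm38.p6, and the promoter table used here was matched for 6 of the 9 genes. Flt1 lies on the minus strand at chr5:147726012-147726261 and Kdr on the minus strand at chr5:75978456-75978705. Capitals mark GGAA or TTCC, the core letters read by ETS factors on either strand.
Flt1: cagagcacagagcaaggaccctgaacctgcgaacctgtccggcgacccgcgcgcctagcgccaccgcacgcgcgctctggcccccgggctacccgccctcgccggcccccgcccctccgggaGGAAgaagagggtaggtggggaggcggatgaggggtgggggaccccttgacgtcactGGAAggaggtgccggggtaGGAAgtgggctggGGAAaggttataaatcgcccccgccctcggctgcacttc
Kdr: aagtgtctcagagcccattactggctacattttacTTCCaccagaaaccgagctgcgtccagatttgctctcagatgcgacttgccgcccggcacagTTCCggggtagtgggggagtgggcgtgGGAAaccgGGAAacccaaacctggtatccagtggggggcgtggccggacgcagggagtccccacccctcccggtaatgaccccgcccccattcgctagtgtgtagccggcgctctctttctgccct
Each window holds 4 such matches, and 33.4% of 32851 promoter windows of the same length hold 4 or more, with a median of 3. The match is of letters only and tells nothing about binding. Of the other genes matched, Slco1a4 had 4, Tek 2, Cldn5 0 and Ly6c1 4 and 6 in its 2 windows.

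No vessel gene was called in any of the 3 comparisons with control. A gene was called at an unadjusted p under 0.01 in limma's moderated test on log2(TPM + 0.5), with one model for the 4 groups. Called were 0 of 9 members for ethanol against control, where 0.678% of the 18434 tested genes were, 0 of 9 for stress, where 0.51% were, and 0 of 9 for ethanol + stress, where 0.971% were. At an unadjusted p under 0.05 there was also no member in these 3 comparisons. The median log2 change of the 9 genes was -0.03, -0.07 and 0.03 in that order, beside 0.02, 0.00 and 0.02 over all tested genes. The widest 95% intervals among the 9 genes reached from 0.540-fold to 1.43-fold for ethanol, from 0.679-fold to 1.58-fold for stress and from 0.584-fold to 1.46-fold for ethanol + stress. With 3 mice a group, changes within a gene's own interval were not excluded. In whole tissue, fewer vessel cells and less RNA per vessel cell cannot be told apart.

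**Figure D1:**
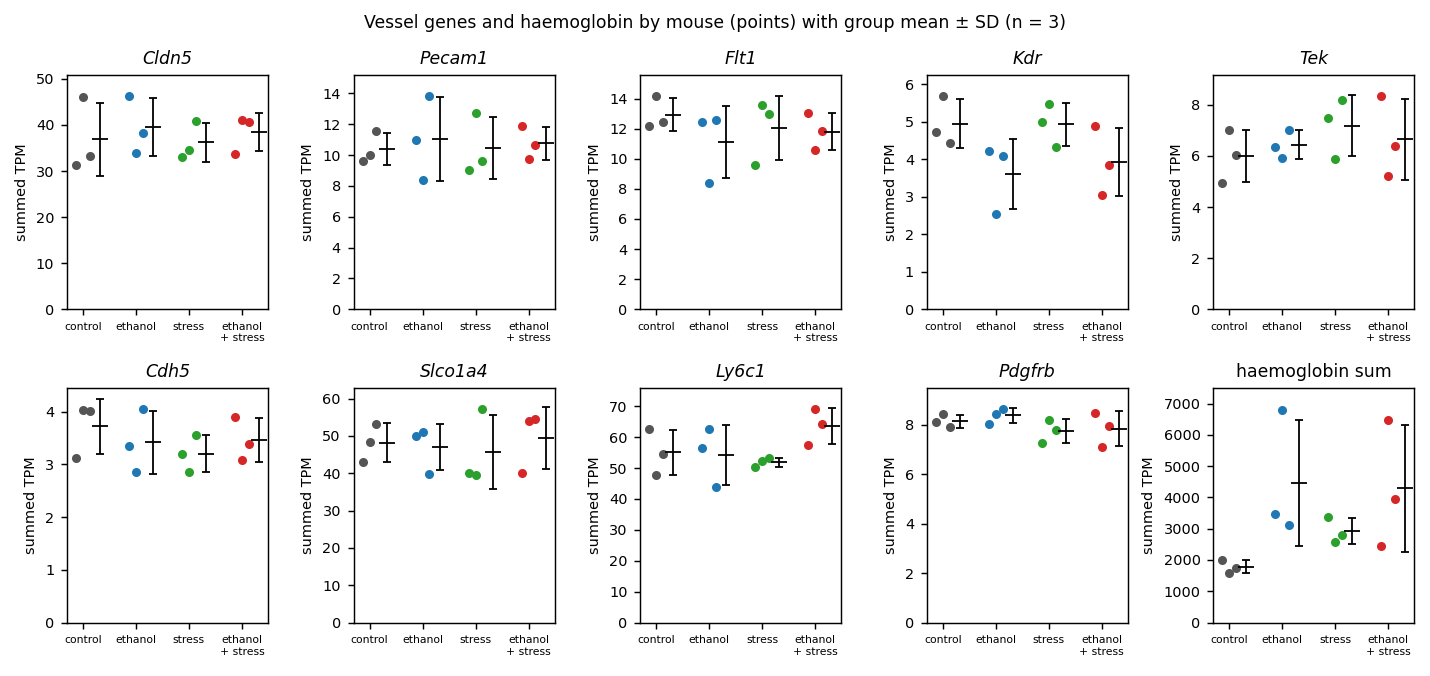
Each panel plots the summed TPM of one gene, or of the 4 haemoglobin genes together, for 12 mice in 4 groups; points are mice and the black bar is the mean ± SD (n = 3). Against control, the vessel genes' groups overlap except for Kdr in ethanol mice, while every haemoglobin value of the treated mice lies above the 3 controls.

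Cldn5 encodes the claudin that seals brain endothelial tight junctions. It measured 31.3, 46.0 and 33.3 TPM (control), 46.3, 33.9 and 38.2 (ethanol), 33.1, 34.5 and 40.9 (stress) and 33.8, 41.0 and 40.6 (ethanol + stress). Control mice spanned nearly the whole range, and all groups overlapped. The log2 change from control was 0.11 for ethanol, -0.01 for stress and 0.08 for ethanol + stress (SE 0.16 each).

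Cdh5 encodes VE-cadherin, the adherens junction protein of endothelium. Its level was 3.12, 4.03 and 4.01 TPM (control), 3.36, 2.86 and 4.05 (ethanol), 3.20, 2.85 and 3.56 (stress) and 3.91, 3.09 and 3.40 (ethanol + stress). Of the stress mice, 2 lay inside the control range and 1 below it, and the log2 change was -0.19 (SE 0.17). Pecam1 (CD31) is an adhesion molecule at endothelial contacts. Pecam1 measured 9.60, 9.99 and 11.6 TPM (control), 10.96, 8.38 and 13.8 (ethanol), 9.03, 12.8 and 9.58 (stress) and 11.9, 9.75 and 10.6 (ethanol + stress). Its lowest and its highest value both came from the ethanol group.

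Kdr, the main signalling receptor for vascular endothelial growth factor A, measured 4.73, 5.69 and 4.45 TPM in controls and 4.22, 2.54 and 4.09 TPM in ethanol mice. It measured 4.995, 5.48 and 4.34 TPM in stress mice and 4.88, 3.06 and 3.84 TPM in ethanol + stress mice. All 3 ethanol mice lay below all 3 controls and all 3 stress mice. Against control, 1 of 9 members (Kdr) had non-overlapping values for ethanol, where 8.25% of all tested genes did. No member separated for stress, where 7.2% of genes did, or for ethanol + stress, where 10.2% did.

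For Kdr the log2 change was -0.43 (SE 0.21, unadjusted p = 0.066, adjusted p = 0.997, limma) for ethanol, 0.00 (SE 0.21) for stress and -0.32 (SE 0.21, unadjusted p = 0.161, limma) for ethanol + stress. Set over all 6 ethanol-exposed and all 6 other mice, the change was -0.37 (SE 0.15, 95% interval -0.70 to -0.04, unadjusted p = 0.029, adjusted p = 0.760, limma), which is short of the call. The Kdr change was -0.12 without ethanol replicate 2 and ethanol + stress replicates 2 and 3, with only ethanol + stress replicate 1 left there. With log2 haemoglobin in the model for all mice it was 0.04 (unadjusted p = 0.817, limma). Of the 3 ethanol + stress mice, 1 lay inside the control range and 2 below it. Both comparisons with control use the same 3 control mice, so they do not count as separate evidence.

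Flt1, the higher-affinity receptor that binds the same ligand, measured 12.2, 14.2 and 12.5 TPM (control), 12.4, 8.37 and 12.6 (ethanol), 9.59, 13.6 and 12.98 (stress) and 13.02, 10.6 and 11.8 (ethanol + stress). Ethanol replicate 2 was the lowest of all 12, as it was for Kdr, and the other ethanol mice lay inside the control range. The log2 change was -0.23 (SE 0.18) for ethanol, -0.11 (SE 0.18) for stress and -0.13 (SE 0.18) for ethanol + stress.

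Tek, the receptor for angiopoietins that keeps vessels quiescent, measured 4.94, 7.0 and 6.04 TPM (control), 6.35, 5.91 and 7.03 (ethanol), 7.49, 5.87 and 8.20 (stress) and 8.35, 5.22 and 6.38 (ethanol + stress). The highest mice were in the isolated groups, but the overlap was wide, and the log2 change for stress was 0.24 (SE 0.19). Pdgfrb, the pericyte receptor, measured 8.09, 8.41 and 7.89 TPM (control), 8.04, 8.44 and 8.63 (ethanol), 7.25, 8.21 and 7.80 (stress) and 8.47, 7.09 and 7.95 (ethanol + stress). It was the steadiest of the 9 genes, with a residual SD within groups of 0.08 on the log2 scale beside a median of 0.23 over the members and 0.22 over all tested genes. Its log2 change was 0.04 for ethanol, -0.07 for stress and -0.05 for ethanol + stress (SE 0.11 each).

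The transport and surface genes were the most abundant. Slco1a4 encodes an organic anion transporter at the barrier. It measured 43.0, 48.5 and 53.2 TPM (control), 49.9, 51.1 and 39.8 (ethanol), 40.2, 39.6 and 57.2 (stress) and 40.0, 54.0 and 54.6 (ethanol + stress). Every treated group had at least 1 mouse near 40 and 1 above 50, and no group stood apart. Ly6c1, a surface protein of brain endothelium, measured 62.6, 47.9 and 54.6 TPM (control), 56.4, 62.6 and 43.7 (ethanol), 50.3, 52.3 and 53.1 (stress) and 57.6, 69.0 and 64.1 (ethanol + stress). Ethanol + stress mice held the 2 highest values and all lay above the 3 stress mice but not above the controls, and the log2 change was 0.21 (SE 0.13, unadjusted p = 0.144, adjusted p = 0.791, limma). Ly6c1 shares 97.6% of 822 aligned bases with Ly6c2, a gene of monocytes, so read pairs can be split between them. Ly6c2 itself was assigned 0.10 to 0.67 TPM.

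The 2 exposures were also taken apart across the 4 groups. For the ethanol main effect 0 of 9 members were called, where 1.12% of genes were, and Kdr above was the 1 member under an unadjusted p of 0.05. For the separation main effect, which sets the 6 isolated against the 6 other mice, 0 of 9 were called, where 0.586% of genes were. For the interaction 0 of 9 were called, where 0.461% were. Over all genes, 1 gene (Gm49070, a gene model named here after its values were seen, listed at 0 in all control and stress mice and at 2.18, 3.73 and 2.03 TPM in ethanol mice) passed an adjusted p of 0.05 for ethanol, for ethanol + stress and for the ethanol main effect, and 0 in the other comparisons with limma, which gave 442, 605 and 496 genes with an unadjusted p under 0.05 for stress, separation and the interaction.

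Haemoglobin was higher in the treated mice. The summed TPM of Hba-a1, Hba-a2, Hbb-bs and Hbb-bt was 2015, 1597 and 1732 in control mice, 3459, 6793 and 3132 in ethanol mice, 3381, 2580 and 2802 in stress mice and 2444, 6462 and 3965 in ethanol + stress mice. All 9 treated mice lay above all 3 controls. The ratio of geometric means was 2.36-fold for ethanol, 1.64-fold for stress and 2.24-fold for ethanol + stress, each at p = 0.1 in a two-sided exact permutation test, the smallest p that 3 against 3 mice allow. The 3 ratios share 1 set of controls.

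Between the 6 ethanol-exposed and the 6 other mice the ratio was 1.80-fold (two-sided exact permutation p = 0.0195), and between the isolated and the other mice 1.25-fold (exact permutation p = 0.422). Without ethanol replicate 2 and ethanol + stress replicates 2 and 3 the log2 ratio for ethanol exposure was 0.39 (exact permutation p = 0.202, 3 against 6 mice). These libraries stood apart over length, but they also held the most haemoglobin of all, so leaving them out had to lower the ratio. Adjusted over the 5 comparisons of the sum (Benjamini-Hochberg), the exact permutation p-values were 0.0974 for ethanol exposure, 0.422 for isolation and 0.125 for the other 3. In limma each of the 4 genes and Alas2, the haem synthesis enzyme of red cells, was called for ethanol, for ethanol + stress and for the ethanol main effect, and none of these 5 genes for stress. Hba-a1, for example, rose by 1.28 (SE 0.30) for ethanol and by 1.08 (SE 0.30) for ethanol + stress on the log2 scale, with adjusted p = 0.997 and 0.791. When 1 library was left out in turn, its call for ethanol was lost in 0 of 12 fits and that for ethanol + stress in 3, and Hbb-bs lost its call in 4 and 6 of 12 and that for the ethanol main effect in 8. With ethanol replicate 2 and ethanol + stress replicates 2 and 3 left out, only ethanol + stress replicate 1 is in its group. The changes are then given with no test. For ethanol they were 0.97 for Hba-a1, 0.93 for Hba-a2, 0.85 for Hbb-bs, 0.81 for Hbb-bt and 0.86 for Alas2. For ethanol + stress, from that 1 mouse, they were 0.55, 0.45, 0.42, 0.60 and 0.48 in that order. For the ethanol main effect they were 0.38, 0.35, 0.28, 0.39 and 0.32. Hba-a1 and Hba-a2 agree in 99.8% of 538 aligned bases and Hbb-bs and Hbb-bt in 93.0% of 618, so the split within each pair is uncertain.

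**Figure D2:**
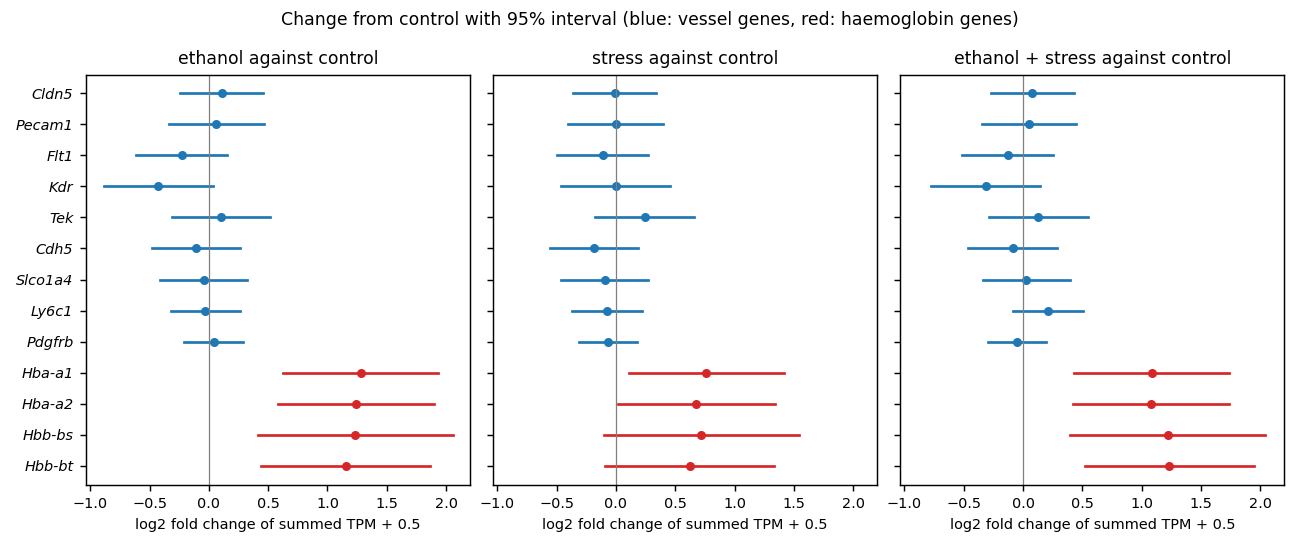
Log2 fold changes of summed TPM + 0.5 against control (points) with 95% intervals (lines) for the 9 vessel genes in blue and 4 haemoglobin genes in red, in the 3 comparisons. All intervals of the 9 vessel genes include 0, and the haemoglobin intervals for ethanol and for ethanol + stress lie above 0.

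The mean level of the vessel genes was also set beside haemoglobin, although single members moved in different directions and a mean hides that. The mean log2 deviation of the 9 genes from their 12-mouse means ran from -0.18 in ethanol replicate 2, the mouse with the most haemoglobin, to 0.12 in control replicate 2, the mouse with the least. When each library was rescaled to a common total it ran from -0.39 to 0.19, with ethanol replicate 2 again lowest. As deposited, group medians of that level were 0.03 (control), 0.03 (ethanol), 0.00 (stress) and 0.04 (ethanol + stress). The summed TPM of the 9 genes was 180 to 192 (control), 172 to 198 (ethanol), 165 to 198 (stress) and 182 to 203 (ethanol + stress).

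**Figure D3:**
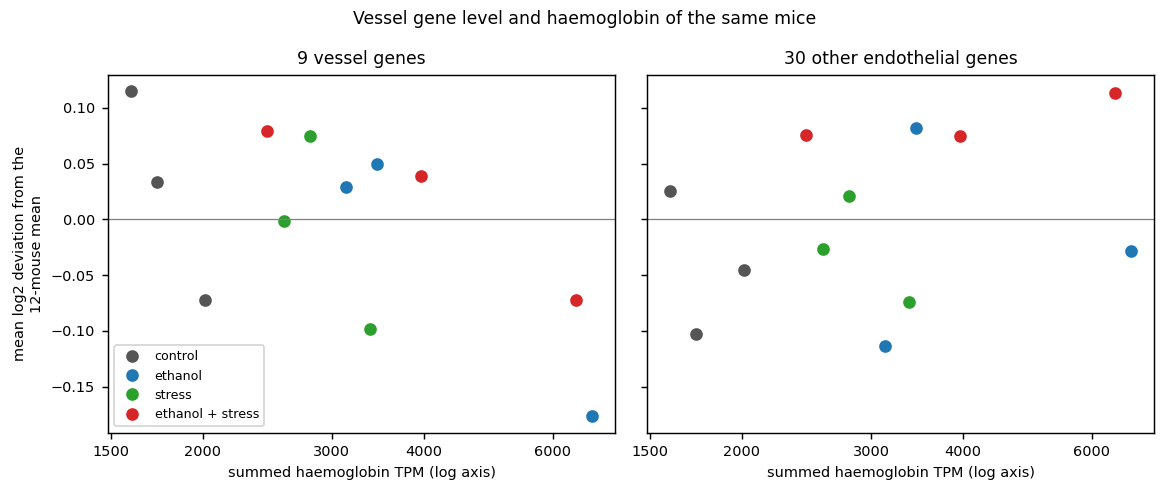
The mean log2 deviation from the 12-mouse mean (vertical axis) of the 9 vessel genes (left) and of 30 other endothelial genes (right) is plotted against summed haemoglobin TPM on a log axis, with one point a mouse, coloured by group. Haemoglobin spans 1597 to 6793 TPM and the mean vessel level, as deposited, spans -0.18 to 0.12.

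Within groups, the relation to haemoglobin differed from gene to gene. Each gene was fitted with the group and the log2 haemoglobin sum, and the slope is the log2 change for each doubling of haemoglobin. Flt1 had a slope of -0.39 (SE 0.11, unadjusted p = 0.004, adjusted p = 0.028, limma) and Kdr of -0.48 (SE 0.13, unadjusted p = 0.004, adjusted p = 0.026, limma). These 2 of 9 members were called, where 19% of 18430 genes were, and the median slope was -0.26 over the members and 0.02 over all genes.

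The other slopes were -0.37 for Pecam1, -0.32 for Tek, -0.26 for Cdh5, -0.11 for Pdgfrb, -0.06 for Cldn5, 0.22 for Slco1a4 and 0.26 for Ly6c1, none of them called. When each library was rescaled to a common total, the median slope of all genes moved to -0.21, the share of called genes that were higher went from 54.3% to 9.58%, 4 members were called, and the slope was -0.06 for Slco1a4 and 0.02 for Ly6c1. Both slopes above 0 belonged to shorter messages, Slco1a4 (2023 bp) and Ly6c1 (818 bp), and the 5 lowest slopes to messages of at least 3020 bp. Pdgfrb, at 5407 bp with a slope of -0.11, and Cldn5, at 1416 bp with -0.06, did not follow that order. Flt1 and Kdr have the longest messages, at 6510 and 5868 bp. Transcript length moved with haemoglobin across libraries: values fell with length most in ethanol replicate 2, ethanol + stress replicate 2 and ethanol + stress replicate 3, by 0.10, 0.09 and 0.07 log2 units for each doubling of length, and these 3 mice had the most haemoglobin. In the other 9 libraries this slope lay between -0.02 and 0.07.

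With the length trend of each library removed, haemoglobin included, 0 of 9 members were called, and the slopes were -0.48 for Kdr and -0.31 for Flt1 with unadjusted p = 0.032 and 0.062 in limma. Without those 3 mice the slopes were -0.29 for Kdr and -0.92 for Flt1. That fit drops the mice with the most haemoglobin. Ethanol + stress replicate 1, then alone in its group, adds nothing to a slope within groups. Leaving out ethanol replicate 2 alone also ended both calls, at -0.41 and -0.30, and leaving out ethanol + stress replicate 1 or ethanol replicate 3 left 1 call. The part of length in the slopes was otherwise not tested.

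**Figure D4:**
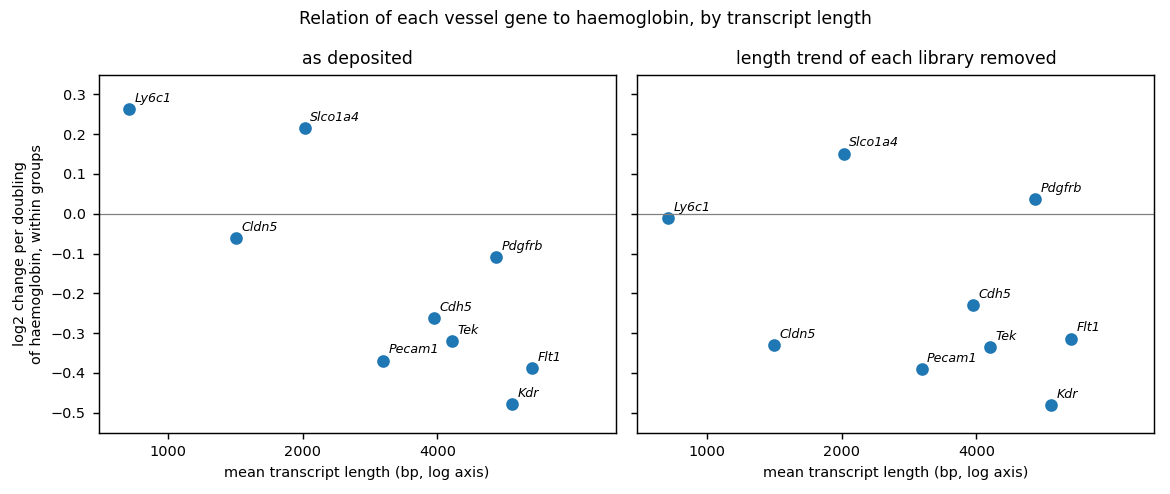
The log2 change for each doubling of haemoglobin within groups (vertical axis) is plotted against mean transcript length in bp on a log axis for the 9 vessel genes, as deposited (left) and after each library's trend over length was removed (right). On the left Ly6c1 and Slco1a4 lie above 0 and the other 7 genes, the short Cldn5 at -0.06 among them, below, and on the right Ly6c1 lies at -0.01 and Cldn5 at -0.33.

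The 9 genes did not vary as one block between mice of a group. Over the 36 pairs, with group means removed and 12 mice, Pearson's r had a median of 0.26 and ranged from -0.85 for Cdh5 with Ly6c1 to 0.87 for Tek with Cdh5, and 21 pairs were above 0. Pecam1 and Flt1 had 0.77. These pairs share libraries and their length trends, and the values are a description. The genes whose profile over the 12 mice was most like the members' mean profile were Ctnnb1 (r = 0.92), Arhgef28 (0.91), Ccser2 (0.91), Gm18956 (0.90), Drp2 (0.88), Ptprb (0.86), Olfm3 (0.86), Palm3 (0.85), Lemd2 (0.85) and Spred3 (0.84). Ptprb, the endothelial phosphatase that acts on Tek, is the 1 vessel gene of the lists among these 10.

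Of the 37 member transcripts in the table, 25 passed the filter and were tested. For ethanol against control 1 was called, where 1.26% of 59852 transcripts were, and 0 were called for stress, where 0.914% were, and for ethanol + stress, where 1.21% were. The called one was Flt1-206, a retained-intron transcript at 0.07, 0.00 and 0.07 TPM (control) and 0.37, 0.21 and 0.29 TPM (ethanol). It holds 1.11% of Flt1, at most 5.97 read pairs a mouse, and its log2(TPM + 0.5) rose by 0.54 (SE 0.13, unadjusted p = 0.002, adjusted p = 0.628, limma). The call was lost without control replicate 2 and under 2 other filters on low values.

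The long and short Flt1 forms, whose sequences are given above, made up nearly the whole gene. Flt1-202 measured 8.47, 7.88 and 7.90 TPM (control), 7.57, 4.78 and 6.88 (ethanol), 6.18, 8.81 and 7.81 (stress) and 7.57, 6.28 and 7.10 (ethanol + stress). Flt1-203 measured 3.65, 4.78 and 4.49 TPM (control), 4.48, 2.79 and 4.72 (ethanol), 3.35, 4.62 and 5.05 (stress) and 5.06, 4.24 and 4.60 (ethanol + stress). The short form's share of the pair was 34.7% ± 4.06 (SD, n = 3) for control, 38.3% ± 2.14 (ethanol), 36.3% ± 2.61 (stress) and 39.9% ± 0.523 (ethanol + stress). The ethanol + stress shares, 39.3% to 40.3%, all lay above the highest control at 37.8%. The share was looked at after the values were seen, so it is given with no test.

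**Figure D5:**
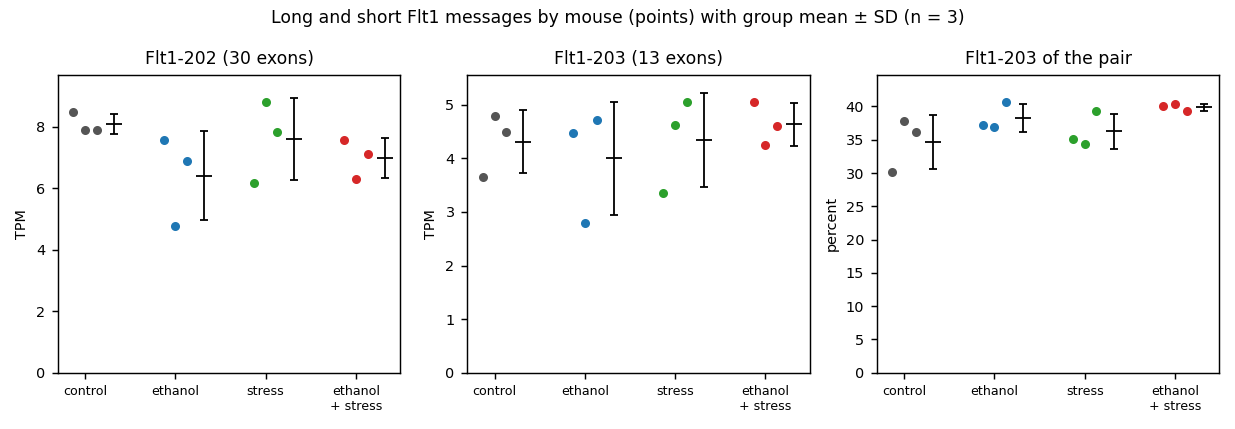
TPM of the long Flt1-202 and the short Flt1-203, and the share of Flt1-203 in their sum in percent, for 12 mice (points) with group mean ± SD (bars, n = 3). The share is 39.3% to 40.3% in ethanol + stress mice and 30.1% to 37.8% in control mice.

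Most messages of Kdr, Cdh5 and Pdgfrb came from 1 transcript, with 97.7%, 98.4% and 97.0% of the gene. Slco1a4 was spread over Slco1a4-202 with 49.2%, Slco1a4-203 with 36.2% and a further coding transcript with 13.8%, and Pecam1 over 4 transcripts of at least 10.3% each, of which Pecam1-203 held 37.2%. Slco1a4-202 spans 622 bp and the full-length Slco1a4-203 spans 3823 bp, so the gene's TPM leans on a short form.

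Longer lists of vessel wall genes were counted in the same way. Of 30 other endothelial genes 0 were called in any of the 3 comparisons with control, with median log2 changes of 0.03 for ethanol, 0.02 for stress and 0.13 for ethanol + stress. Their summed TPM was 485 to 519 (control), 470 to 552 (ethanol), 498 to 516 (stress) and 525 to 593 (ethanol + stress), so as deposited the 3 ethanol + stress mice lay above the control and stress mice. Rescaled to a common total the sums were 514 to 539 TPM (control) and 499 to 570 TPM (ethanol + stress), and the groups overlapped. The mean log2 deviation of these 30 genes was 0.07 to 0.11 in ethanol + stress and -0.10 to 0.03 in control mice as deposited, and -0.09 to 0.19 and -0.03 to 0.09 when rescaled, a description with no test. Vwf, the clotting factor stored in endothelium, was called for the separation main effect (log2 change 0.32, SE 0.10, adjusted p = 0.9999, limma), from 4.90, 4.43 and 4.46 TPM (control) and 3.72, 2.93 and 3.65 in ethanol to 4.81, 4.61 and 5.46 in stress and 5.52, 5.37 and 4.66 in ethanol + stress mice. The Vwf call was lost in 10 of the 12 fits that left out 1 library. Without the 3 libraries that stood apart over length its change was 0.31, with only ethanol + stress replicate 1 left in its group. In the haemoglobin slope Itm2a was called upward (0.46) and Ptprb downward (-0.32), where 19% of all tested genes were called.

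Of 14 other pericyte genes 0 were called in any comparison, with medians of 0.05, -0.01 and 0.07. Among 7 vascular smooth muscle genes Des, the intermediate filament of muscle cells, was called lower for stress (log2 change -0.66, SE 0.21, adjusted p = 0.9998, limma), at 1.74, 1.26 and 1.01 TPM (control) and 0.585, 0.878 and 0.505 TPM (stress). The Des call was lost in 8 of 12 such fits. The summed smooth muscle list was 28.7 to 39.4 TPM (control) and 27.9 to 36.6 TPM (stress). The 2 markers of fenestrated vessels, Plvap and Esm1, summed to 3.19 to 3.89 TPM in control mice and were called in no comparison.

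Of 15 tested ligands and co-receptors of the member receptors, 0 were called in the comparisons between groups. In the haemoglobin slope, where 19% of all tested genes were called, Nrp1 (-0.54) and Nrp2 (-0.56) were called downward. They are co-receptors for vascular endothelial growth factors that neurons also carry. Among 8 perivascular and meningeal genes Igf2, a growth factor of meninges, vessels and choroid plexus, was called for ethanol + stress (log2 change 0.56, SE 0.17, adjusted p = 0.791, limma). It went from 18.9, 14.2 and 17.3 TPM in control to 23.9, 29.6 and 21.5 TPM. For ethanol and stress its change was 0.45 and 0.49 (SE 0.17 each, unadjusted p = 0.020 and 0.014, limma), short of the call. The Igf2 call was lost in 4 of 12 such fits, and so were the calls described next for S100a8 in 7 and Ngp in 5. Without the 3 libraries that stood apart over length the Igf2 change was 0.51, from ethanol + stress replicate 1 alone.

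Genes of red and of white cells were called in ethanol + stress mice. Among red cell genes the 4 haemoglobin genes and Alas2 were called for ethanol + stress, as given above, and 0 of 8 red cell genes were called for stress. Slc4a1, the anion exchanger of red cells, was called for the separation main effect (log2 change 0.54, SE 0.18, adjusted p = 0.9999, limma), a call lost in 9 of 12 fits that left out 1 library, at 0.00 to 0.19 TPM in control mice and 0.12 to 0.66 TPM in stress mice. Of 8 white cell genes 2 were called for ethanol + stress, S100a8 (log2 change 2.17, SE 0.69) and Ngp (1.01, SE 0.30), both of neutrophils, with adjusted p = 0.791 in limma. S100a8 measured 2.51, 0.463 and 1.30 TPM (control) and 2.76, 16.0 and 8.37 TPM (ethanol + stress), so it was high in the 2 mice of that group with the most haemoglobin. Ethanol replicate 2, the mouse with the most haemoglobin of all, had 1.82 TPM, inside the control range. The white cell list summed to 0.983 to 8.09 TPM (control) and 6.43 to 32.5 TPM (ethanol + stress). Ngp was listed at 0 in all 3 controls. Without the 3 libraries that stood apart over length the log2 change for ethanol + stress was 0.91 for S100a8 and 0.29 for Ngp. These values come from ethanol + stress replicate 1 alone and are given with no test.

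Choroid plexus tissue, which has its own vessels, varied widely between mice of the same group. Ttr, its main message, ranged from 30.003 to 7089 TPM over the 12 mice, and the list of 10 genes summed to 627 to 1861 TPM (control) and 43.4 to 3555 TPM (ethanol), with 0 of 10 called in any comparison. Ethanol replicate 2, with the most haemoglobin, had 70.7 TPM of Ttr and ethanol + stress replicate 2, next in haemoglobin, had 7089 TPM. No vessel gene was called when log2 Ttr was added to the model. The haemoglobin slope, which called 19% of 18430 genes, called 3 of 6 microglial genes upward, Aif1 and C1qa among them. Of 4 astrocyte endfoot and 7 hippocampal neuron genes it called 2 upward (Aldh1l1 and Gja1) and 4 downward (Fibcd1, Neurod6, Rbfox3 and Wfs1). When each library was rescaled to a common total, Gja1 turned to -0.020, the upward calls of Aif1, C1qa, Aldh1l1 and, among the endothelial genes above, Itm2a were lost, and the 4 downward calls held. C1ql2, of dentate granule cells, was called lower in the ethanol main effect (-0.30, SE 0.09), a call lost in 7 of 12 fits that left out 1 library.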

How the data were processed

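Values were TPM per transcript, deposited as one table for the 12 libraries. Per the labels the authors used CASAVA, kallisto and sleuth with mm10; versions are not given in the sources used here. Library sums ran from 889222 to 1173650, so the deposited values are a signal and not counts. They were taken as TPM already scaled between libraries by the authors, which is an inference from these sums. Of 115270 transcripts 113580 matched GENCODE vM21 and were summed by gene. A gene entered the test when 6 or more libraries reached 0.1 TPM, and tests were run with limma 3.58.1 (R 4.3.3; lmFit, eBayes with trend, two-sided, Benjamini-Hochberg over all genes). The smooth over length used a lowess span of 0.5. Read pairs were estimated from single-transcript genes: 80.5% to 83.7% of values under 8 pairs were whole within 0.15. Scripts were tested on simulated data. Some listed genes are not reported here.

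The members and lists were chosen with earlier results of these data known. Named were the members, their transcripts called or holding 10% of the gene, the haemoglobin genes and Alas2, up to 4 called genes per list and comparison, the 10 genes most like the members' mean, and near copies. Alternatives covered pseudocount, filter, scaling, variance model, groups fitted, replicate block, coding transcripts, haemoglobin covariate and each library left out; length trend, 3 libraries left out, Ttr covariate and the rescaled list levels were chosen after seeing the data.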

Additional observations from a re-analysis of the deposited data

Results flagged for a closer look

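Tmem119, a microglial marker, had an interaction of ethanol and separation of 0.54 on the log2 scale (SE 0.16, unadjusted p = 0.007, adjusted p = 0.99998, limma): isolation went with higher values in ethanol-exposed mice and not in the others. It measured 19.5, 15.6 and 18.0 TPM (control), 17.6, 15.8 and 13.8 TPM (ethanol), 17.3, 16.4 and 16.6 TPM (stress) and 20.1, 22.8 and 22.7 TPM (ethanol + stress). The difference between the groups' effects was what singled it out. It was 1 of 6 microglial genes called in that comparison, 1 of 6 microglial genes called in that comparison, where 0.461% of all genes were. The call was lost in 9 of 12 fits that left out 1 library. Without ethanol replicate 2 and ethanol + stress replicates 2 and 3 the value was 0.43, with only ethanol + stress replicate 1 left in its group.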

How the results depend on the processing

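Members called for each comparison between groups stayed at 0 under all alternatives run except the interaction with haemoglobin as covariate, where 1 (Ly6c1, 0.52) was called. For the haemoglobin slope, 2 members were called. With the length trend removed 0 were, when rescaled to a common total 4 were (Flt1, Kdr, Pecam1 and Tek), and with 1 library left out 0 to 3 were. Leaving out ethanol replicate 2 and ethanol + stress replicates 2 and 3 keeps only ethanol + stress replicate 1 in its group, so no count is given. The member transcripts called for ethanol fell from 1 to 0 with at least 1 TPM in 6 libraries and with a mean of at least 0.1 TPM, and lay between 0 and 1 when 1 library was left out, as they did for ethanol + stress (0 in the report, 1 without control replicate 3). The haemoglobin ratio for ethanol exposure was 0.85 (log2). It was 0.39 (exact permutation p = 0.202) without those 3 libraries, which also held the most haemoglobin, so a lower ratio was built in. Causes were not tested.

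Same-numbered mice did not vary together: over 18 pairs of libraries r ran from -0.17 to 0.16, 1 was over 0.1, and 2 of 12 libraries correlated best with their own number, so the numbers are names only. With the replicate block the haemoglobin ratio was 0.85 with exact permutation p = 0.0625, and no member call changed.

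Called genes that turned direction were Alas2 in the haemoglobin slope without the 3 libraries (-0.19), Gja1 in that slope when rescaled to a common total (-0.020), and, with haemoglobin as covariate, Hbb-bs for ethanol (-0.13), ethanol + stress (-0.064) and the ethanol main effect (-0.067) and Hbb-bt for ethanol (-0.059); the covariate is these genes' own sum. Among values not called, 149 combinations of value and setting had a changed sign, such as the Slco1a4 slope when rescaled. Counts over all genes moved by more than 1.5 times with haemoglobin as covariate, from 125 to 1165 for ethanol, 94 to 629 for stress, 179 to 366 for ethanol + stress, 207 to 437, 108 to 164 and 85 to 980 for the ethanol, separation and interaction terms. With at least 1 TPM they were 69 (ethanol), 42 (stress), 62 (separation) and 48 (interaction), with no filter 198 (ethanol) and 131 (interaction), and with coding transcripts 56 (stress). Rescaled to a common total they were 118 (ethanol + stress) and 128 (ethanol main effect), and the share of higher calls went from 71.5% to 45.8% and from 73.4% to 50%, as it did from 76% to 59.6% for ethanol and from 52.8% to 40.7% for separation. Without ethanol + stress replicate 1 they were 763, 653 and 140 for ethanol + stress, ethanol main effect and interaction. For ethanol + stress they were 118 without replicate 2 of that group and 114 without control replicate 3. For the ethanol main effect they were 352 without ethanol replicate 3. The haemoglobin slope called 3501 genes, 1286 with the length trend removed, 1745 without ethanol + stress replicate 1 and 1986 without ethanol replicate 2.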
